A study of Saccharomyces cerevisiae with 12 samples.

Results

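The 4 arrays analysed here compared a budding yeast strain carrying a null allele of GCR1 with a second strain, both grown in 2% glucose. They are the arrays whose titles name glucose, 4 of the 12 of the series, and the other 8 hold the same comparison in 3% raffinose and in 3% galactose, with 4 arrays each. Every array carried total RNA of both cultures in the same sugar, and the labels give Cy5 for channel 1 and Cy3 for the other. The deposited value of each probe is a log2 ratio between the channels, and averaging over each gene's probes yielded 5636 genes. The submitters' design text names biological replicates and a dye-swapped repeat of each, without saying which arrays belong together. Independent cultures are thus fewer than arrays, which may make p-values too small. The sources used here give neither the second strain, the strain background and the growth phase, nor the way GCR1 was inactivated. Spot brightness was not analysed here, so signal over background is not known for any ratio. Precision is limited by how few arrays there are.

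Gcr1 is a transcriptional activator that works with Gcr2 and the general factor Rap1 at the promoters of genes for glycolytic enzymes and, with Rap1, at promoters of ribosomal protein genes. Glucose-grown budding yeast ferments by preference. Glucose represses genes for respiration, gluconeogenesis, use of other sugars and stress tolerance, partly through the repressor Mig1 and the Snf1 kinase, while signalling through Ras and protein kinase A favours ribosome production. Strains without Gcr1 are known for poor growth on glucose.

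The sign of the ratios was read as labelled mutant over second strain. Which channel held which strain is absent from the labels, so this reading is likely and not settled. Its basis is the textbook role of Gcr1, since the glycolytic genes it is known to activate had ratios far below 0. The values below are therefore given as above or below 0, and the opposite reading would exchange the strains in each of them. The probes of the targeted gene go against the reading. GCR1 (YPL075W) stood at 0.48, 0.49, 0.43 and 0.21 on replicates 1 to 4, above 0 on all 4 arrays, with a mean of 0.40 ± 0.13 (SD, n = 4, as for all means below; limma, adjusted p = 0.0194). Its call was lost without replicate 1, 2 or 3 (adjusted p = 0.0662, 0.0705 and 0.0609) and when each pair of arrays, 1 with 2 and 3 with 4, entered as its mean (adjusted p = 0.263). The GCR1 means in raffinose and galactose, 1.67 and 1.58, lay farther above 0 and go against the reading too. Whether the GCR1 probes lie inside the part that was deleted is not known here, so the gene is no check of the labels. For genes not called in glucose, a second adjusted p is given where a fit with replicate numbers as a block called them. The block takes up what same-numbered arrays of the sugars share, which is mainly the dye orientation, and does not pair cultures. The genes on both sides of GCR1 in assembly R64, chosen by position, were at -0.24 ± 0.35 for GPI2 (adjusted p = 0.256; 0.0081 with the block) and -0.46 ± 0.15 for YTA6 (adjusted p = 0.0486, lost without any 1 of the 4 arrays).

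Across genes the glucose arrays correlated with each other, with Pearson r = 0.957 for replicates 1 and 2, 0.981 for 3 and 4, and 0.801 to 0.855 between these pairs. Genes are not independent replicates, and these values describe the arrays. Over all probes r between the pairs was 0.1 to 0.118. Among unnamed spots 112 had ratios over 5 in size on at least 3 arrays, and 101 of them changed sign between replicates 1 and 2 and replicates 3 and 4. None of the 5 probes with a gene name that passed the same limit did. Replicates 1 and 2 were taken as 1 dye orientation and 3 and 4 as the other. Array medians over genes ran from -0.11 to -0.012.

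In all, 3302 of 5636 genes (58.6%) had a mean ratio that differed from 0 at an adjusted p under 0.05 in limma, which tests each gene with a spread steadied across genes, with Benjamini-Hochberg adjustment over all genes. These genes are called in what follows. Of them 1512 (26.8% of all genes) lay above 0 and 1790 (31.8%) below. The same sign on all 4 arrays was seen for 3269 of the called genes and for 71.7% of all genes. Among called genes with the same sign on all 4 arrays, 643 lay at least 1 above 0, a 2-fold ratio or more, and 620 at least 1 below. With the mean of each orientation as 1 value, 789 genes above 0 and 775 below were called, all of them among the 3302. If the orientations are read rightly, a culture and its dye swap lie in opposite ones. That average then measures the spread between orientations and does not keep cultures apart. Averaging replicates 1 with 3 and 2 with 4 gave 4395 calls, and 1 with 4 and 2 with 3 gave 4939. Which of these pairs share a culture is not known. A share of called members near 26.8% or 31.8% in a gene list is thus no more than the arrays show over all genes, whose median was -0.038. This applies also to lists below whose counts are given without a remark on the background. The lists and their members were chosen with earlier results of these data known. Larger shares are therefore a description and no test of a list. List counts with each orientation averaged have a smaller background, the 789 genes above 0 and 775 below of 5636. Remarks below on the background refer to the main fit.

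The highest ratios belonged to a small heat shock protein gene, a homologue of phosphoglycerate mutase, a gene of the Hsp30 family and a hexokinase gene that glucose normally represses. The lowest belonged to 2 steps of lower glycolysis. HSP12 (YFL014W), which encodes a membrane-stabilising stress protein, stood at 6.49, 6.24, 5.55 and 6.22 on replicates 1 to 4 (6.12 ± 0.40, adjusted p = 2.81e-10). GPM2 (YDL021W), a homologue of phosphoglycerate mutase without proven activity, stood at 5.7, 6.15, 5.97 and 6.13 (5.99 ± 0.21, adjusted p = 2.19e-12). YRO2, which encodes a plasma membrane protein of the Hsp30 family, had a mean of 5.4 ± 0.17, HXK1, for hexokinase, 5.18 ± 0.40, and NCE103, for carbonic anhydrase, 4.74 ± 0.40. Each of these 5 genes lay above 3 on all 4 arrays. At the other end, the enolase gene ENO2 (YHR174W) stood at -4.25, -4.61, -6.39 and -6.23 (-5.37 ± 1.1, adjusted p = 2.33e-07), a 41.4-fold ratio at its mean. GPM1 (YKL152C), the phosphoglycerate mutase gene, stood at -3.88, -4.07, -5.8 and -6.11 (-4.96 ± 1.15, adjusted p = 1.01e-06). PET122 (YER153C), which encodes a translational activator of a mitochondrial mRNA, stood at -3.26, -3.73, -4.96 and -5.31 (-4.32 ± 0.98). CHA1 (YCL064C), for the serine and threonine dehydratase that breaks these amino acids down, stood at -4.2, -4.24, -4.14 and -4.2 and varied least among the lowest genes (-4.19 ± 0.040, adjusted p = 2.07e-10). For ENO2, GPM1 and PET122 replicates 3 and 4 lay at least 1 below replicates 1 and 2, whereas the 4 arrays gave CHA1 nearly the same value. RNA was extracted from whole cultures, so a shift in the mix of cells in different states and a shift in RNA per cell cannot be told apart.

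Others among the 20 highest genes fell into recognisable roles. SNZ1 (4.63 ± 0.44) and SNO1 (3.98 ± 0.38) form an enzyme for vitamin B6 synthesis that is induced as cells leave growth, and THI4 (3.98 ± 0.069) makes the thiazole part of thiamine. RGI1 (4.48 ± 0.46) and SPG4 (4.17 ± 0.85) are known for respiratory growth and survival in stationary phase. ALD4 (4.26 ± 0.36) encodes mitochondrial aldehyde dehydrogenase, PDH1 (4.2 ± 0.26) a mitochondrial enzyme of propionate use, and SUE1 (3.96 ± 0.10) a factor in the breakdown of unstable cytochrome c. STR3 (4.18 ± 0.47), for a sulfur amino acid lyase, and SPS19 (4.07 ± 0.24), for an auxiliary enzyme of fatty acid oxidation, act in peroxisomes. AMS1 (3.85 ± 0.57) encodes the vacuolar mannosidase, DAK2 (3.89 ± 0.40) a dihydroxyacetone kinase and GCY1 (3.89 ± 0.14) a glycerol dehydrogenase. MSC1 (4.09 ± 0.33) and TMA10 (3.96 ± 0.38) complete the list. Of the 20 lowest genes, 12 encode cytosolic ribosomal proteins, and the others, besides ENO2, GPM1, PET122 and CHA1, were ENO1, TPI1, URA1 and LYS9.

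Glycolysis genes lay below 0 from phosphoglucose isomerase downward, with exceptions, and HXK1 and GLK1, at the entry of glucose, lay above 0. The sign of the ratios was read from such genes, so their side of 0 is no check of that reading. Of 17 genes of the pathway 12 were called below 0 and 3 above, with a median of -1.37. GLK1, the glucokinase gene, stood at 4.02, 4.0, 3.32 and 3.22 (3.64 ± 0.43) and HXK1 at 5.42, 5.6, 4.91 and 4.78, both far above 0. HXK2, for the hexokinase that predominates during growth on glucose, had a mean of 0.63 ± 0.62 and was not called (adjusted p = 0.0519; 8.71e-06 with the block), at 1.21, 1.12, 0.20 and -0.0020 on replicates 1 to 4, higher in the first orientation. In upper glycolysis the phosphoglucose isomerase gene PGI1 (-1.0 ± 0.38) and the aldolase gene FBA1 (-1.94 ± 1.0) were called below 0. The phosphofructokinase subunit genes PFK1 (-0.63 ± 0.54) and PFK2 (-0.70 ± 0.45) were called too, but lost their calls without replicate 3 (adjusted p = 0.168 and 0.069) or replicate 4 (adjusted p = 0.183 and 0.0785). They also lost them with each orientation averaged (adjusted p = 0.23 and 0.149).

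The triose phosphate isomerase gene TPI1 stood at -1.91, -2.11, -3.31 and -3.46 (-2.7 ± 0.80, adjusted p = 1.08e-05). Of the 3 glyceraldehyde phosphate dehydrogenase genes, TDH3 (-2.17 ± 0.39) and TDH2 (-1.37 ± 0.50) were called below 0, while TDH1, which is known to be expressed mainly outside rapid growth, was not called (0.62 ± 0.70, adjusted p = 0.152; 0.000438 with the block). The phosphoglycerate kinase gene PGK1 had a mean of -1.91 ± 0.77. ENO1, the second enolase gene, stood at -3.54, -3.51, -4.41 and -4.52 (-4.0 ± 0.55), less far below 0 than ENO2 on each array. The main pyruvate kinase gene CDC19 stood at -1.41, -1.56, -3.33 and -3.53 (-2.46 ± 1.13, adjusted p = 0.000117), and PYK2, its weakly expressed paralog, lay above 0 at 0.79 ± 0.27 (adjusted p = 0.00482; 0.089 with each orientation averaged). ENO1 and ENO2, and TDH2 and TDH3, are close paralogs whose probes may cross-hybridise. The median over the 17 genes was -0.90 and -0.96 on replicates 1 and 2 and -1.81 and -1.79 on replicates 3 and 4, so the orientations differed in size but not in sign.

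**Figure D1:**
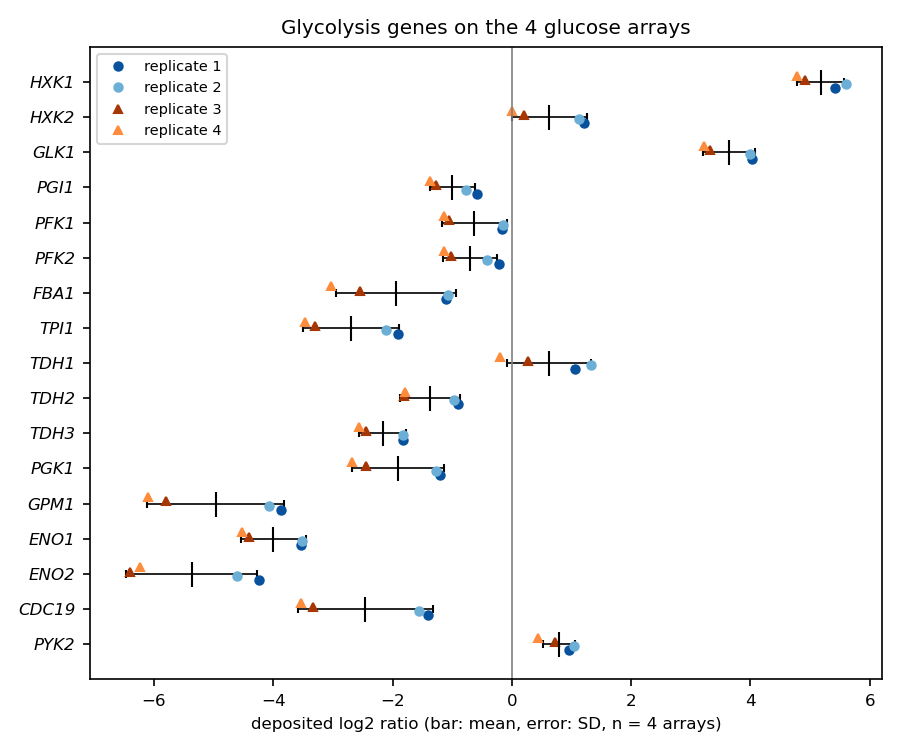
Deposited log2 ratios of the 17 glycolysis genes, in pathway order from top to bottom, on the 4 glucose arrays (points; circles are replicates 1 and 2, triangles replicates 3 and 4), with the mean and SD of each gene. HXK1 and GLK1 lie above 3 on every array, the genes from FBA1 to CDC19 lie below 0 except TDH1, and the triangles lie to the left of the circles for each gene.

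Many yeast enzymes have a related second gene that is known for expression on other carbon sources or in slow growth. For 17 pairs of genes with related products, mostly of central carbon metabolism and chosen after their values were seen and therefore given no test as a group, the second gene had the higher ratio on all 4 arrays in 16. Both genes were called with opposite signs in 7 pairs and with the same sign in 5. The alcohol dehydrogenase gene ADH1, which makes ethanol, stood at -1.33, -1.26, -2.93 and -3.16 (-2.17 ± 1.02), and ADH2, which oxidises ethanol and is repressed by glucose, at 2.97, 2.77, 3.27 and 2.92 (2.98 ± 0.21). The cytosolic aldehyde dehydrogenase gene ALD6 was at -2.19 ± 0.73 and its mitochondrial counterpart ALD4 at 4.26 ± 0.36. In the pentose phosphate pathway SOL3 (-1.35 ± 0.093) and SOL4 (3.75 ± 0.25), which encode 6-phosphogluconolactonases, lay on opposite sides of 0. TKL1, the main transketolase gene, was not called (-0.37 ± 0.41, adjusted p = 0.103; 0.00146 with the block) and TKL2 was at 3.71 ± 0.48. The branched-chain aminotransferase genes BAT1, mitochondrial, and BAT2, cytosolic, were at -1.49 ± 0.60 and 2.44 ± 0.32. The exception was the glucokinase pair, in which GLK1 lay above its paralog EMI2 (3.04 ± 0.12).

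**Figure D2:**
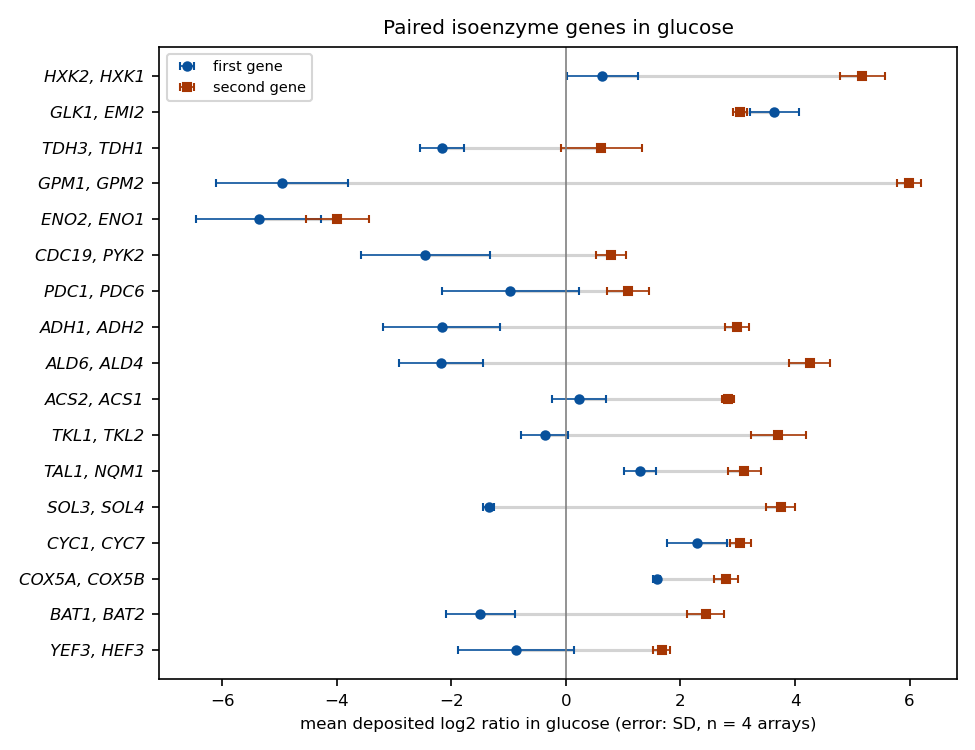
Mean log2 ratio in glucose with SD over 4 arrays for 17 pairs of genes with related products; circles are the first gene named, squares the second. GPM1 and GPM2 lie farthest apart, at -4.96 and 5.99, and in all pairs but GLK1 and EMI2 the square lies to the right.

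Around pyruvate and ethanol, 6 of 11 fermentation genes were called above 0 and 4 below (3 above and 2 below with each orientation averaged), and the 4 became 2 without replicate 3 or 4. PDC1, the main pyruvate decarboxylase gene, stood at 0.068, 0.056, -1.83 and -2.18. Replicates 1 and 2 gave it no shift and replicates 3 and 4 a strong one, and its call (-0.97 ± 1.2, adjusted p = 0.0498) was lost without replicate 3 or 4 (adjusted p = 0.224 and 0.276). ADH5 (3.58 ± 0.31), for a minor alcohol dehydrogenase, was the highest of the list. Of 7 genes for acetate and acetyl-CoA, 4 were called above 0 and 2 below. ACS1, the glucose-repressed acetyl-CoA synthetase gene, was at 2.83 ± 0.11, and ACS2, the form needed on glucose, was not called (0.23 ± 0.47, adjusted p = 0.409; 0.0136 with the block). Of 10 glycerol genes 7 were called above 0 and none below. They included GPD1 (1.44 ± 0.42) and GPP2 (3.06 ± 0.29), which make glycerol, and GUT2 (2.15 ± 0.23), which oxidises glycerol phosphate in mitochondria. In the pentose phosphate pathway 6 of 11 genes were above 0 and 3 below, among them GND2 (2.07 ± 0.14) and NQM1 (3.11 ± 0.29) above and the ribose phosphate isomerase gene RKI1 (-2.14 ± 0.37) below, while ZWF1, the entry enzyme gene, was not called (-0.16 ± 0.31).

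More genes for uptake and use of sugars were called above 0 than below. Of 23 genes of hexose transport and sensing, 11 were called above 0 and 2 below (7 above and 0 below with each orientation averaged), with a median of 0.67. HXT4 stood at 1.94, 1.75, 2.07 and 1.96 (1.93 ± 0.13), HXT1, the low-affinity transporter gene of high glucose, at 1.21 ± 0.38, and HXT5, the transporter gene of slow growth, at 1.47 ± 0.57. The sensor genes SNF3 (1.16 ± 0.11) and RGT2 (0.68 ± 0.043) and MTH1 (1.56 ± 0.45), which encodes a regulator of HXT genes, were also called above 0. HXT6 (0.67 ± 0.42) and HXT7 (0.73 ± 0.30), nearly identical genes that their probes may not separate, lost their calls with each orientation averaged (adjusted p = 0.113 and 0.0765). Array by array the median of the list was 0.38 and 0.37 on replicates 1 and 2 and 1.02 and 1.03 on replicates 3 and 4.

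Of 14 genes for sucrose and maltose, 10 were called above 0 and none below, with a median of 1.25. The isomaltase genes IMA1 (2.04 ± 0.19), IMA3 (1.94 ± 0.11) and IMA4 (2.03 ± 0.072) and the maltase genes MAL12 (1.79 ± 0.80) and MAL32 (1.87 ± 0.72) were among them, and each set holds close paralogs. SUC2, the invertase gene and a classic target of Mig1, had a mean of 0.50 ± 0.31 and was not called (adjusted p = 0.0701; 0.000307 with the block). Of 9 galactose genes 5 were called above 0 and none below (2 above and 0 below with each orientation averaged). PGM2, for the phosphoglucomutase that also serves glycogen, stood at 2.15 ± 0.10 and the galactokinase gene GAL1 at 1.16 ± 0.52. GAL2, the permease gene, was not called (0.050 ± 1.19), and its orientations lay on either side of 0.

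Of 20 regulators of glucose repression 6 were called above 0 and 4 below, shares near or under the background (3 above and 0 below with each orientation averaged). CAT8 (1.7 ± 0.31) and ADR1 (1.7 ± 0.20), which encode activators of glucose-repressed genes, and SIP2 (0.96 ± 0.20), for a subunit of the Snf1 complex, were called above 0. SNF1 (-0.42 ± 0.16, adjusted p = 0.0536; 0.00457 with the block) and MIG1 (0.38 ± 0.33, adjusted p = 0.0538; 0.00649 with the block) were not called. On the protein kinase A list 6 of 19 genes were above 0 and 2 below (2 above and 2 below with each orientation averaged), with PDE1 (2.17 ± 0.073), for a phosphodiesterase of cyclic AMP, and MSN4 (1.56 ± 0.17), for a stress activator, above and RAS1 (-1.78 ± 0.26) and the kinase subunit gene TPK3 (-0.95 ± 0.18) below. Its share above 0 was near the background and its share below 0 under it. Of 8 regulators of glycolytic genes 6 were called below 0 and 2, GCR1 and TYE7, above (1 above and 3 below with each orientation averaged). RAP1 stood at -0.98, -1.21, -1.27 and -1.32 (-1.2 ± 0.15) and REB1 at -0.98 ± 0.12, and both encode general regulatory factors. GCR2, which encodes the partner of Gcr1, was at -0.59 ± 0.057 (adjusted p = 0.00136; 0.105 with each orientation averaged). TYE7, for a helix-loop-helix activator of glycolytic genes, stood at 1.43, 1.89, 1.48 and 1.73 (1.63 ± 0.22, adjusted p = 3.47e-06).

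Genes of mitochondrial energy metabolism gave the most uniform picture above 0. All 39 measured genes of the respiratory chain and ATP synthase were called above 0, with a median of 1.64, and 36 of them stayed called with each orientation averaged. Their median was 1.88 and 1.77 on replicates 1 and 2 and 1.52 and 1.29 on replicates 3 and 4. CYC7 and CYC1, which encode the forms of cytochrome c, were at 3.05 ± 0.19 and 2.29 ± 0.52. COX5B, for the cytochrome oxidase subunit made with little oxygen, stood at 2.56, 2.73, 3.05 and 2.85 (2.8 ± 0.21), and COX5A, its aerobic counterpart, at 1.61, 1.49, 1.65 and 1.58 (1.58 ± 0.067). The internal NADH dehydrogenase gene NDI1 (2.41 ± 0.18), the Rieske protein gene RIP1 (2.47 ± 0.19), INH1 (2.85 ± 0.29), which encodes an inhibitor of the ATP synthase, and the ATP synthase subunit gene ATP1 (1.93 ± 0.50) were among the others. HAP4, which encodes the activating subunit of the Hap complex of respiratory genes, was not called (0.20 ± 0.57, adjusted p = 0.528; 0.0265 with the block).

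All 17 measured genes of the tricarboxylic acid cycle were called above 0 as well, with a median of 1.89. The mitochondrial citrate synthase genes CIT1 and CIT3 stood at 4.11, 4.23, 3.4 and 3.4 and at 3.18, 3.47, 4.0 and 4.0. The succinate dehydrogenase genes SDH2 (2.5 ± 0.36) and SDH1 (2.07 ± 0.41) followed, and the isocitrate dehydrogenase gene IDH1 (0.92 ± 0.17) lay near the low end. CIT2, the peroxisomal citrate synthase gene that reports on retrograde signalling, was at 3.64 ± 0.40, while 4 of the 8 genes of that list were called above 0 and none below. Of 23 genes for gluconeogenesis, the glyoxylate cycle and lactate, 18 were called above 0 and 3 below. CYB2, for the lactate dehydrogenase of mitochondria, stood at 3.35, 3.51, 3.37 and 3.44 (3.42 ± 0.073), and JEN1, for the lactate permease, at 3.16 ± 0.19. PYC1, for pyruvate carboxylase, was at 3.31 ± 0.46, FBP1, for fructose bisphosphatase, at 1.57 ± 0.22, and PCK1, for phosphoenolpyruvate carboxykinase, at 1.0 ± 0.48. MDH2, the cytosolic malate dehydrogenase gene, lay below 0 at -0.97 ± 0.28. In beta-oxidation and peroxisomes 9 of 22 genes were above 0 and 1 below. POT1 (3.77 ± 0.19), FAA1 (3.74 ± 0.091) and POX1 (2.62 ± 0.83), for the thiolase, an acyl-CoA synthetase and the oxidase, were the highest after SPS19.

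**Figure D3:**
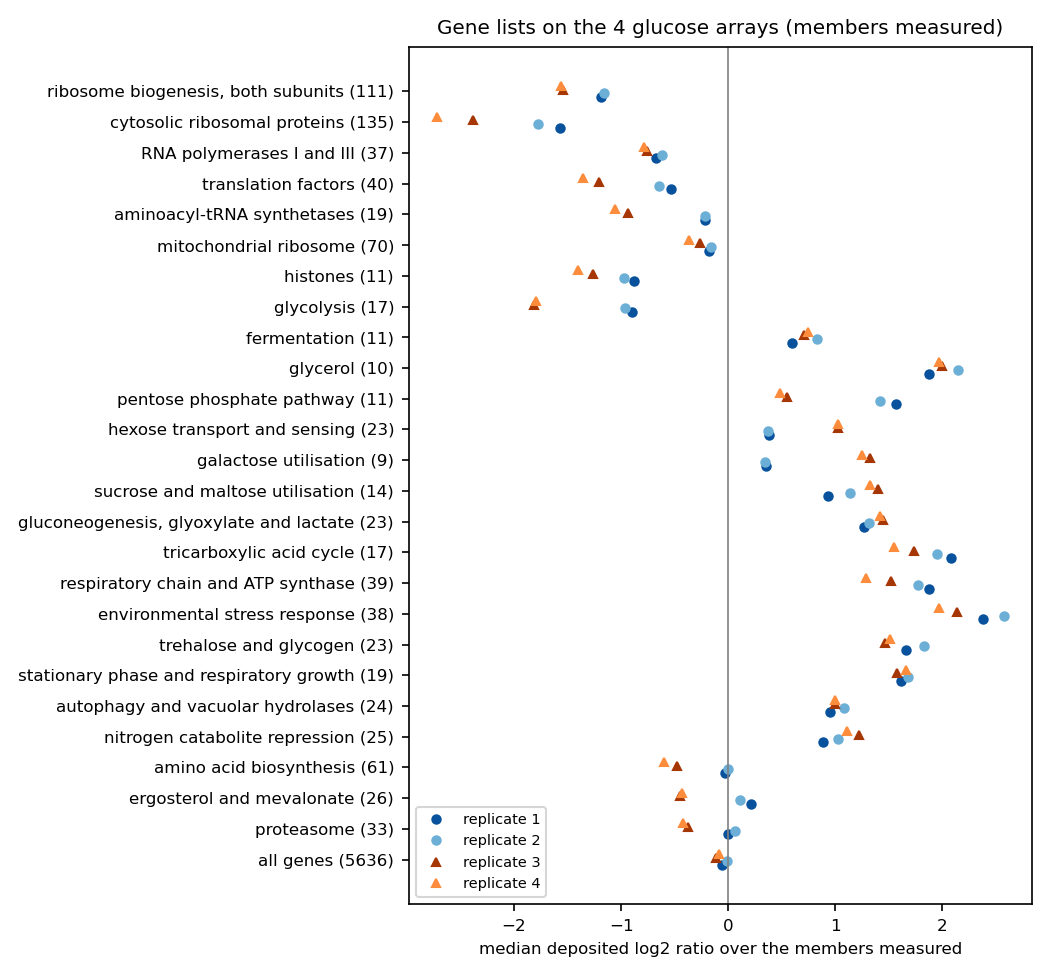
Median log2 ratio of the measured members of 25 gene lists and of all genes on each glucose array; the number of members is in brackets. The 4 points of ribosome biogenesis lie between -1.56 and -1.16 and those of the environmental stress list between 1.97 and 2.57, while ergosterol and proteasome genes have points on both sides of 0.

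The machinery of ribosome production lay below 0 almost without exception. Of 135 cytosolic ribosomal protein genes, 134 were called below 0 and none above, with a median of -2.1, and 132 stayed called with each orientation averaged. The large subunit had 79 of 80 genes below 0 and the small subunit 55 of 55. The median was -1.57 and -1.77 on replicates 1 and 2 and -2.38 and -2.72 on replicates 3 and 4, lower in the second orientation. RPL9A stood at -2.78, -2.92, -3.43 and -3.71 (-3.21 ± 0.43), RPL11A at -2.93 ± 0.22 and RPL20A at -2.87 ± 0.20 in the large subunit, and RPS2 at -1.84, -1.99, -3.37 and -3.69 (-2.72 ± 0.94) and RPS11B at -2.49 ± 0.24 in the small subunit. Most of these genes have a near-identical paralog that shares signal, so single members are uncertain. Regulators of ribosomal protein genes were below 0 in 6 of 10 cases and above in 2 (1 above and 4 below with each orientation averaged). IFH1, which encodes a coactivator, stood at -0.74 ± 0.018 (adjusted p = 0.00263; 0.0914 with each orientation averaged), FHL1, for its partner at the promoter, at -0.84 ± 0.082 and HMO1, for a high mobility group protein, at -1.12 ± 0.37. SFP1, for an activator of ribosome genes, was not called (-0.11 ± 0.39, adjusted p = 0.549).

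All 111 genes of ribosome biogenesis were called below 0, of which 51 act in the small subunit processome and 60 in large subunit assembly, and 98 stayed called with each orientation averaged. The median was -1.19 and -1.16 on replicates 1 and 2 and -1.54 and -1.56 on replicates 3 and 4. In the processome HCA4, for an RNA helicase, stood at -2.15, -2.04, -2.17 and -1.91 (-2.06 ± 0.12), NOP1, for the methylase fibrillarin, at -1.53 ± 0.52, and NOP56 and NOP58, for its partners in guide RNA complexes, at -1.62 ± 0.42 and -1.28 ± 0.50. In large subunit assembly NOP4 stood at -2.34, -1.93, -2.39 and -2.18 (-2.21 ± 0.21), NOP7 at -1.97 ± 0.38, RRP15 at -1.87 ± 0.12 and REA1, for the large remodelling ATPase, at -1.84 ± 0.13. Of 37 genes for RNA polymerases I and III 29 were called below 0 and 2 above (16 and 1 with each orientation averaged), among them the polymerase I genes RPA34 (-1.75 ± 0.60), RPA135 (-1.55 ± 0.31) and RPA190 (-1.4 ± 0.42).

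Translation factors were called below 0 in 32 of 40 cases and above in 1, but 17 below with each orientation averaged. TIF4631, for an initiation factor scaffold, stood at -1.5, -1.38, -1.7 and -1.65 (-1.56 ± 0.15), and EFB1, for an elongation factor exchange protein, at -1.5 ± 0.51. The gene above 0 was HEF3 (1.67 ± 0.15), the usually silent copy of elongation factor 3, whereas the main copy YEF3 was not called (-0.87 ± 1.02, adjusted p = 0.0529; 5.86e-06 with the block). Of 19 aminoacyl-tRNA synthetase genes 11 were called below 0 (7 without replicate 3 or 4, and 3 with each orientation averaged), with MES1 at -1.28 ± 0.23. Of 70 mitochondrial ribosome genes 25 were called below 0, a share near the background, and 3 above, a share under it. The 25 became 16 without replicate 2 or 4, and with each orientation averaged 1 was called below and 1 above. MRP2 stood at -0.80 ± 0.28. Histone genes were below 0 in 8 of 11 cases, led by HTB2 (-1.47 ± 0.36) and HTA1 (-1.37 ± 0.15). Of 33 proteasome genes 4 were called below 0 and none above (0 above and 0 below with each orientation averaged), and the 4 became 1 without replicate 3.

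Stress and storage genes lay above 0 in nearly every case. Of 38 genes of the environmental stress response, which budding yeast induces under many stresses and at slow growth, 35 were called above 0 and none below, with a median of 2.21, and 33 stayed called with each orientation averaged. The cytosolic catalase gene CTT1 stood at 3.56, 3.71, 3.55 and 3.57 (3.6 ± 0.075), DDR2 at 3.06 ± 0.34, MPC3, for a mitochondrial pyruvate carrier subunit made in respiratory growth, at 3.29 ± 0.28 and SPI1, for a cell wall protein, at 2.08 ± 0.22. CMK2, for a calmodulin-dependent kinase, was not called (-0.49 ± 0.33). Of 23 genes for trehalose and glycogen 20 were called above 0 and 1 below. GLC3, the glycogen branching enzyme gene, stood at 3.15, 3.32, 3.38 and 3.2 (3.26 ± 0.11), GPH1, for glycogen phosphorylase, at 3.18 ± 0.17, GSY2, for the main glycogen synthase, at 1.83 ± 0.047, and TSL1, for a subunit of trehalose synthase, at 2.67 ± 0.12. The named genes for making and for breaking down glycogen were on the same side of 0.

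Chaperone genes split. Of 24 genes 8 were called above 0 and 11 below (6 above and 3 below with each orientation averaged), and the 11 became 6 without replicate 3 and 7 without replicate 4. The share above 0 was near the background. SSE2 stood at 2.71, 2.73, 2.68 and 2.7 (2.7 ± 0.022), SSA1 at 2.22 ± 0.75, HSP78, for a mitochondrial chaperone, at 2.21 ± 0.18, and HSP104, for the disaggregase, at 1.93 ± 0.34, whereas SSA2, a near-identical paralog of SSA1, was at -1.52 ± 0.86. Antioxidant genes were above 0 in 11 of 26 cases and below in 7 (7 above and 2 below with each orientation averaged). PRX1, for the mitochondrial peroxiredoxin, was at 3.04 ± 0.25 and GRX1, for a glutaredoxin, at 2.57 ± 0.053, while the mitochondrial superoxide dismutase gene SOD2 was not called (0.054 ± 0.32). Genes of stationary phase and respiratory growth were above 0 in 17 of 19 cases and below in none. Autophagy and vacuolar hydrolase genes were above 0 in 17 of 24 cases and below in none, with ATG8, the autophagosome protein gene, at 2.92, 2.7, 2.4 and 2.34 (2.59 ± 0.27), the aminopeptidase gene APE1 at 2.88 ± 0.091 and the protease genes PRB1 and PEP4 at 1.72 ± 0.35 and 1.51 ± 0.37. Genes under nitrogen catabolite repression were above 0 in 17 of 25 cases and below in 3, with GDH2, for the glutamate dehydrogenase that breaks glutamate down, at 2.75 ± 0.26, the ammonium permease genes MEP1 and MEP2 at 2.37 ± 0.073 and 1.17 ± 0.11, and the general amino acid permease gene GAP1 at 1.82 ± 0.045.

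Biosynthetic pathways did not move as blocks. Of 61 genes of amino acid synthesis and breakdown 24 were called below 0 and 14 above (6 above and 14 below with each orientation averaged). Besides CHA1, the lysine pathway genes LYS9 (-2.56 ± 0.55), LYS2 (-1.78 ± 0.30) and LYS1 (-1.32 ± 0.33) lay below 0, and SER3 (2.56 ± 0.31), CPA1 (2.38 ± 0.36) and GDH3 (1.97 ± 0.14) above. Array by array the median of the list was -0.030 and -0.0030 on replicates 1 and 2 and -0.47 and -0.60 on replicates 3 and 4. Sulfur and methionine genes were above 0 in 13 of 26 cases and below in 3 (6 above and 3 below with each orientation averaged), with MET28, for a transcription factor of the pathway, at 2.77 ± 0.29 and SAM1, for S-adenosylmethionine synthetase, at -2.07 ± 0.088. Nucleotide genes were below 0 in 13 of 30 cases and above in 9, the latter a share near the background (6 above and 8 below with each orientation averaged). URA1, for dihydroorotate dehydrogenase, stood at -3.08, -2.95, -3.28 and -3.31 (-3.15 ± 0.17) and URA7, for CTP synthase, at -1.77 ± 0.21, while URA10, the minor copy of an orotate transferase gene, was at 2.54 ± 0.17. IMD2, the inducible gene for IMP dehydrogenase, stood at 3.34, 3.5, 3.13 and 3.2 (3.29 ± 0.16) and IMD4, a constitutive paralog, at -0.81 ± 0.36 (adjusted p = 0.00386; 0.0932 with each orientation averaged). Ergosterol genes were below 0 in 10 of 26 cases and above in 2, with 6 below left without replicate 4 and 1 when each orientation was averaged, and ERG11 at -1.19 ± 0.48 lost its call then (adjusted p = 0.0532). Their median was 0.22 and 0.11 on replicates 1 and 2 and -0.45 and -0.43 on replicates 3 and 4. Of 12 fatty acid synthesis genes 3 were below 0 and 2 above (0 above and 1 below with each orientation averaged). Of 18 phospholipid and inositol genes 4 were below 0 and 5 above (3 above and 0 below with each orientation averaged), with the inositol monophosphatase gene INM1 at 2.44 ± 0.20 and INO1 at 1.37 ± 0.49. Shares on the fatty acid and phospholipid lists were near or under the background.

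At the cell surface, 13 of 40 cell wall genes were called above 0 and 12 below, shares near the background (10 above and 4 below with each orientation averaged). GSC2, for the glucan synthase subunit induced by stress, stood at 3.67, 3.85, 3.43 and 3.33 (3.57 ± 0.23), and PIR3, for a covalently bound wall protein, at 3.49 ± 0.18, whereas GAS1, for a glucan-modifying enzyme, was at -1.17 ± 0.40 (adjusted p = 0.00192; 0.0565 with each orientation averaged). Phosphate genes were below 0 in 9 of 22 cases and above in 5 (4 above and 3 below with each orientation averaged), with PHO89, for a phosphate transporter, at 0.91, 0.96, 0.91 and 0.99 (0.94 ± 0.037) and VTC3, for polyphosphate synthesis, at -1.24 ± 0.17. Of 27 iron and copper genes 13 were above 0 and 8 below (7 above and 3 below with each orientation averaged), and the 8 became 5 without replicate 1 or 3. Their share below 0 was near the background. The reductase genes lay on both sides, FRE4 at -2.51 ± 0.27 and FRE1 at -1.81 ± 0.52 below and FRE3 at 1.48 ± 0.25 above, and HMX1, for haem oxygenase, was at 2.25 ± 0.26. Among 11 exporter and acid stress genes 6 were above 0 and 4 below (4 above and 1 below with each orientation averaged). The polyamine exporter genes TPO2 and TPO3 were at 2.49 ± 0.11 and 1.24 ± 0.16, and the drug exporter gene SNQ2 was at -0.96 ± 0.31. Of 15 anaerobic genes 8 were above 0 and 4 below (7 above and 1 below with each orientation averaged), with DAN4 at 1.21 ± 0.27.

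Of 33 pheromone response and mating genes 14 were called below 0 and 7 above (3 above and 9 below with each orientation averaged), and the 7 became 3 without replicate 2 and 4 without replicate 4. Their share above 0 was under the background. FAR1, for the arrest factor of the pathway, stood at -1.47, -1.74, -1.7 and -2.04 (-1.74 ± 0.23), SST2, for the regulator that ends the signal, at -1.76 ± 0.24, and FUS1, for a cell fusion protein, at -1.33 ± 0.19, while PRM1, another fusion gene, was at 2.88 ± 0.17. The a-factor genes MFA1 (-1.28 ± 0.34) and MFA2 (-1.32 ± 0.36) were below 0. STE3, the receptor gene of the other mating type, was at 1.59 ± 0.53, and the alpha-factor genes MF(ALPHA)1 (0.14 ± 0.94) and MF(ALPHA)2 (0.38 ± 0.91) were not called. Of 16 strain and mating type markers 3 were above 0 and 6 below (2 above and 3 below with each orientation averaged). Among markers used in strain building, URA3 stood at 2.0, 1.88, 1.85 and 1.8 (1.88 ± 0.083), LEU2 at 0.89 ± 0.55, HIS3 at -0.053 ± 0.88 and TRP1 at 0.015 ± 0.64, the last 2 not called. Whether the strains differed in such markers is not given in the sources used here, and their part in these results was not tested. LEU2 lost its call without replicate 1 or 2 (adjusted p = 0.0685 and 0.0532) and with each orientation averaged (adjusted p = 0.12). Of 18 cyclin and cell cycle genes 5 were below 0 and 3 above, shares under the background (1 above and 2 below with each orientation averaged), with the mitotic cyclin gene CLB2 at -0.87 ± 0.19, and of 23 meiosis genes 10 were above 0 and none below, with REC8, for the meiotic cohesin, at 2.87 ± 0.48. Meiosis genes had a median of 0.10 and 0.23 on replicates 1 and 2 and 1.15 and 1.28 on replicates 3 and 4.

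Where glucose differed from the other sugars was tested gene by gene in the same fit. What is compared is the ratio between the strains, so higher or lower in glucose means a higher or lower ratio. The RNA level of either strain in each sugar was not compared. The sugars share no array. Against raffinose 2117 genes (37.6%) differed, 845 (15%) higher in glucose and 1272 (22.6%) lower. Blocking on replicate number raised the count to 3492, and averaging each orientation left 132. Against galactose 2656 (47.1%) differed, 1088 (19.3%) higher and 1568 (27.8%) lower, and 796 with each orientation averaged. With the replicate block the genes higher than in galactose numbered 1733. With each array centred on its median the share of higher genes among those called rose from 39.9% to 50.4% against raffinose and from 41% to 52.6% against galactose. These shares therefore depend on the centring. Across genes the means in glucose correlated with those in raffinose at Pearson r = 0.59 and with those in galactose at 0.439, a description over genes, which are not independent.

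ENO2 and GPM1, the lowest glycolysis genes, were not called between sugars, and each gained 1 call with the replicate block. ENO2 had -5.05 ± 0.73 in raffinose and -4.48 ± 0.90 in galactose, which differed from glucose by -0.32 ± 0.57 (SE; adjusted p = 0.69) and -0.89 ± 0.57 (adjusted p = 0.216). With the block the adjusted p of the galactose difference was 0.000235. GPM1 differed by 0.43 ± 0.62 (adjusted p = 0.618; 0.0133 with the block) and -0.11 ± 0.62 (adjusted p = 0.904). Of 17 glycolysis genes 3 were higher in glucose than in raffinose and 4 higher than in galactose, with none lower (1 lower than in galactose without galactose replicate 4). The shares higher were near those over all genes, 15% and 19.3%. Over all genes 22.6% and 27.8% were lower. With the block 7 and 8 were higher and 4 and 2 lower. HXK1 was at 0.73 ± 0.44 in raffinose and -1.33 ± 0.55 in galactose, so that glucose stood higher by 4.45 ± 0.30 (adjusted p = 1.67e-06) and 6.51 ± 0.30 (adjusted p = 3.71e-08). GLK1 differed by 2.35 ± 0.34 (adjusted p = 0.000234; 0.0588 with each orientation averaged) and 2.21 ± 0.34 (adjusted p = 0.000171). HSP12 was at 1.5 ± 0.46 and 1.78 ± 0.41 and differed by 4.62 ± 0.28 and 4.34 ± 0.28, with an adjusted p of 8e-07 and 3.15e-07. GCR1 itself was closer to 0 in glucose than in raffinose (1.67 ± 0.35, adjusted p = 0.000282) and galactose (1.58 ± 0.22, adjusted p = 0.000226), differences that were not called with each orientation averaged (adjusted p = 0.106 and 0.0649).

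Ribosome biogenesis genes had lower ratios in glucose than in either other sugar. Their median was -1.31 in glucose, 0.032 in raffinose and 0.18 in galactose, and of the 111 genes 108 were lower than in raffinose and 94 lower than in galactose, with none higher in either. With each orientation averaged 12 and 56 were lower. NOP4 was at -0.045 ± 0.29 in raffinose and 1.03 ± 0.32 in galactose, differences of -2.16 ± 0.20 (adjusted p = 1e-05) and -3.24 ± 0.20 (adjusted p = 2.37e-07). RRP14 was at -1.55 ± 0.30 in glucose against 2.74 ± 0.33 in galactose, and CIC1 at -1.65 ± 0.17 against 0.52 ± 0.36 in raffinose. Cytosolic ribosomal protein genes behaved otherwise. They had medians of -1.02 in raffinose and -1.83 in galactose, and 84 of 135 were lower in glucose than in raffinose but 9 lower and 1 higher than in galactose. The 9 became 3 without galactose replicate 2 and 4 without glucose replicate 4. With the block 127 were lower than in raffinose, and 61 lower and 5 higher than in galactose, and with each orientation averaged none was called in either direction.

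Genes of the respiratory chain mostly had higher ratios in glucose. Their median was 0.58 in raffinose and -0.37 in galactose, and of 39 genes 32 were higher in glucose than in raffinose and 38 higher than in galactose. In the tricarboxylic acid cycle 11 and 15 of 17 genes were higher, among gluconeogenic genes 11 and 16 of 23 were higher and 3 and 2 lower, and among sucrose and maltose genes 11 and 11 of 14 were higher. With each orientation averaged, against raffinose and galactose in turn, 3 and 33 respiratory, 1 and 9 cycle, 6 and 13 gluconeogenic and 2 and 11 sucrose and maltose genes were higher, and 0 and 1 gluconeogenic genes lower. The 3 gluconeogenic genes lower than in raffinose became 6 without raffinose replicate 3 and 6 with the replicate block, and the 2 lower than in galactose became 1 without glucose replicate 2, 3 or 4 or galactose replicate 1 or 2. CYB2 was at -0.054 ± 0.54 in raffinose and -2.16 ± 0.59 in galactose, ADH2 at 0.23 ± 0.48 and -2.62 ± 0.34, and ALD4 at 0.60 ± 0.53 and -0.91 ± 0.49. Each was higher in glucose than in both, with an adjusted p of at most 8.07e-06. MAL12, at -1.95 ± 0.21 and -3.55 ± 0.17 in those sugars, and PHO89, at -3.11 ± 0.35 and -1.85 ± 0.30, lay below 0 there and above 0 in glucose. TMA10 had the largest difference from galactose (6.89 ± 0.25, adjusted p = 9.94e-09) and PIR3 the largest from raffinose (4.96 ± 0.22, adjusted p = 5.76e-08). Stress genes were higher than in raffinose in 33 of 38 cases, and higher than in galactose in 24 and lower in 3, among them CMK2, at 3.33 ± 1.1 in galactose. With each orientation averaged 8 were higher than in raffinose, and 10 higher and 2 lower than in galactose.

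Genes lower in glucose than in raffinose included CHA1 (0.082 ± 0.39 in raffinose, -4.28 ± 0.18, adjusted p = 4.57e-08), FRE4 (-3.39 ± 0.51, adjusted p = 0.000319; 0.055 with each orientation averaged), FAR1 (-2.44 ± 0.24), SST2 (-2.31 ± 0.16) and MFA1 (-2.37 ± 0.22). Of the 33 mating genes 16 were lower and 2 higher than in raffinose, and 17 lower and 2 higher than in galactose (4 and 9 lower and none higher with each orientation averaged). The 2 higher than in galactose became 0 without glucose replicate 1. TPO2 lay above raffinose (-1.7 ± 0.63) and below galactose (5.48 ± 0.57), with differences of 4.19 ± 0.32 and -2.99 ± 0.32. Among the lowest differences from galactose were those of RRP14 (-4.29 ± 0.20), DIA1 (-4.21 ± 0.39), BRE5 (-3.92 ± 0.19), CMK2 (-3.82 ± 0.45) and SPA2 (-3.66 ± 0.24). The means of DIA1, BRE5, CMK2 and SPA2 in glucose lay between -1.31 and -0.49. In all, 1477 genes differed from both other sugars, of which 542 were higher in glucose than in both and 892 lower than in both.

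**Figure D4:**
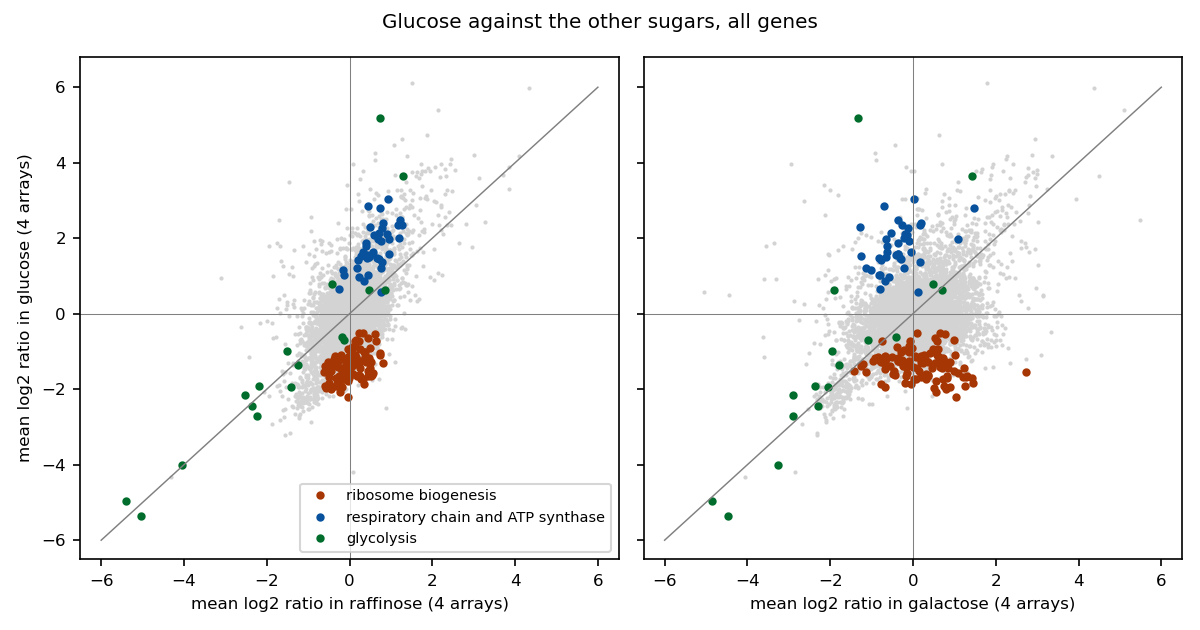
Mean log2 ratio in glucose (vertical) against raffinose (left) and galactose (right) for 5636 genes, with ribosome biogenesis, respiratory chain and glycolysis genes coloured and the line of equal ratios drawn. Of 111 ribosome biogenesis genes 108 were lower in glucose than in raffinose and 94 lower than in galactose, of 39 respiratory genes 32 and 38 were higher, and the lowest glycolysis genes lie at the lower left of both panels.

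The orientations of the glucose arrays gave the same sign for most genes but not the same size. Between replicates 1 and 2 and replicates 3 and 4, 2468 genes (43.8%) differed at an adjusted p under 0.05, 1696 of them (30.1%) higher in replicates 1 and 2 and 772 (13.7%) lower. Their means had opposite signs for 1166 of 5636 genes but for 6 of the 3302 called genes. The end higher in replicates 1 and 2 included genes known for strong expression in growing cells. RPS31 stood at -0.81, -1.09, -2.92 and -3.56 on replicates 1 to 4 and TEF2, an elongation factor gene that was called with the block (adjusted p = 7.11e-06), at 0.17, 0.25, -1.93 and -1.81, and their orientations differed by 2.29 and 2.07. CCW12, for a cell wall protein, stood at 0.13, -0.20, -1.96 and -2.58, and its call (-1.15 ± 1.32, adjusted p = 0.0351) was lost without replicate 3 or 4 (adjusted p = 0.159 and 0.22) and with each orientation averaged (adjusted p = 0.177). The other end included the recombination genes MND1 at -0.24, -2.32, 1.24 and 1.48 and SAE3 at -0.46, -1.64, 1.19 and 2.08, with differences of -2.64 and -2.69. Neither was called in glucose. Spot brightness was not analysed here, so its part in these differences was not tested.

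**Figure D5:**
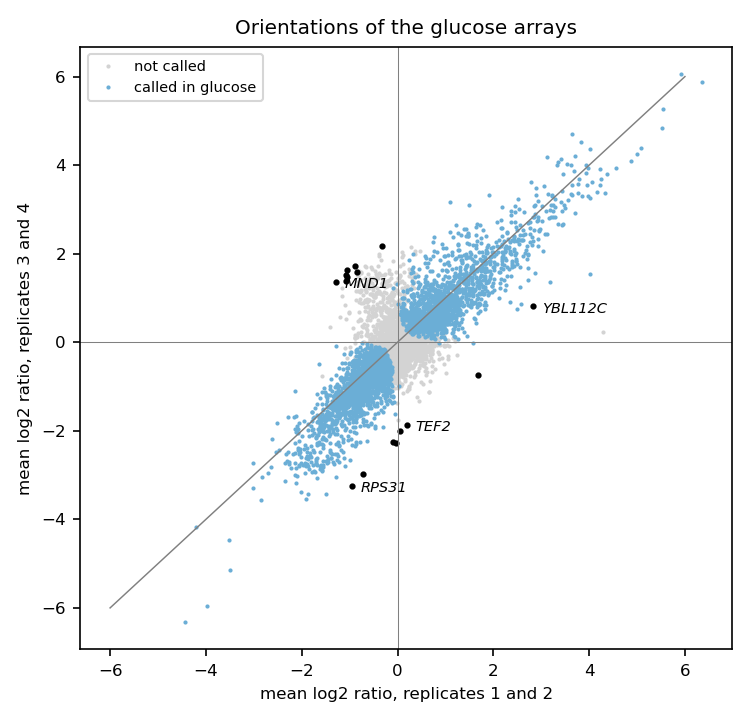
Mean log2 ratio of glucose replicates 1 and 2 (horizontal) against replicates 3 and 4 (vertical) for 5636 genes, with genes called in glucose in blue, the 16 named for the largest differences in black and the line of equal ratios drawn. Called genes lie in the lower left and upper right, and RPS31 and TEF2 lie well below the line.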

How the data were processed

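Total RNA of a gcr1 null strain and a second strain was compared on 2-colour oligonucleotide arrays in 3 sugars, 4 arrays each, and the 4 glucose arrays are reported. The deposited values are ratios on a log2 scale, processed by the authors. The sources used here give neither their normalization, the turning of dye-swapped arrays nor the log base, and base 2 was taken from the size of the values. The submitters' platform table paired 9271 probes with 1 gene each and left 1536 unnamed. Names follow RefSeq assembly R64, in which all 9271 identifiers were found. Probes of a gene were averaged, and genes needed values on at least 3 of 4 arrays per sugar, which left 5636. For 4 genes (PTK1, YIR043C, YNL067W-B and YDR541C) the probes differed by over 1.

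A model with 1 mean per sugar was fitted to all 12 arrays with limma 3.58.1 in R 4.3.3, with Benjamini-Hochberg adjustment over all genes at 0.05. On simulated data for the glucose comparison, with 200 of 5636 genes changed and independent arrays, it recovered 32.3% of changes of 0.5, 83.8% of changes of 1 and 96.4% of changes of 2, and 6.62% of calls were false. The real arrays fall into orientation pairs, and 58.6% of genes were called in glucose. These rates may therefore not hold for the data. Same-numbered arrays deviated together across sugars (r = 0.522 to 0.893), and after removal of the orientation effect r was -0.321 to 0.153, so what the numbers share is the orientation. Of 12 arrays 3 correlated best with an array of their own number, so the numbers do not pair single arrays. Every r before that removal exceeded the limit of 0.1 set for trying a block, and replicate numbers were also entered as a block. What the block takes up is thus mainly the orientation. Over the 223 genes named it ended 0 calls and added 11 in glucose, 28 against raffinose and 34 against galactose. The 11 are printed beside their genes, and of the others those of ENO2 and GPM1.

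Gene lists and members were chosen with earlier results of these data known. Genes were chosen for naming by a fixed rule, which gave 434. It took GCR1, all glycolysis genes, the 20 highest and 20 lowest means and 8 genes at either end of every contrast. From each list it took the key members and up to 4 further called members. The text names 223 genes, and the rule does not set which of its genes are printed. The alternatives were centring, averaging pairs of arrays, the block, an orientation term, leaving out arrays, 1 probe per gene, complete genes, the glucose arrays alone and a size threshold. Promoter motifs were not analysed here.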

Additional observations from a re-analysis of the deposited data

Results flagged for a closer look

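Single arrays stood apart from the other 3 glucose arrays, by the gap to the nearest value against the whole range (Dixon's test at 95%), for 5 of the 223 named genes. About 1 in 20 groups of 4 independent values is picked out so by chance, and these 5 genes are a smaller share. The arrays fall into orientation pairs, so that rate may not hold here. Picked out were replicate 4 for APE1 at 2.74, replicate 2 for CTT1 at 3.71, replicate 1 for FAA1 at 3.88, replicate 2 for GSY2 at 1.90 and replicate 2 for MSN4 at 1.81.

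Ratios differed between glucose and raffinose, tested in the same fit, with glucose higher by 4.96 for PIR3, 4.62 for HSP12, 4.45 for HXK1, 4.19 for TPO2, 4.05 for PHO89, 3.87 for TMA10, 3.74 for MAL12 and 3.65 for ALD4. The difference was -4.28 for CHA1, -3.39 for FRE4, -2.44 for FAR1, -2.37 for MFA1, -2.31 for SST2, -2.23 for RRP15, -2.18 for CIC1 and -2.16 for NOP4.

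Between glucose and galactose, glucose was higher by 6.89 for TMA10, 6.51 for HXK1, 5.60 for ADH2, 5.58 for CYB2, 5.34 for MAL12, 5.28 for MPC3 and 5.24 for MAL32. The difference was -4.29 for RRP14, -4.21 for DIA1, -3.92 for BRE5, -3.82 for CMK2, -3.66 for SPA2 and -3.29 for REA1.

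Outside the named genes, 112 spots without a gene name had ratios over 5 in size on at least 3 glucose arrays. Of them 101 changed sign between replicates 1 and 2 (median -6.74) and replicates 3 and 4 (median 7.82).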

How the results depend on the processing

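No gene called in glucose was called with the opposite sign under any alternative run for glucose. For the contrasts between sugars this was not counted over all genes. With replicates 1 and 2, and 3 and 4, averaged, 1564 genes were called in glucose, 789 above 0 and 775 below, all with the sign they had among the 3302. Requiring a mean of at least 1 in size and the same sign on 4 arrays left 1263. Averaging replicates 1 with 4 and 2 with 3 gave 2349 above 0. With the replicate block 4223 genes were called in glucose, including all 3302, and the block changed no call in glucose of the named genes from called to not called. Leaving out 1 array kept 2817 to 2947 of the 3302 calls.

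Against raffinose (2117), averaging replicates 1 with 2 and 3 with 4 left 132 (108 above, 24 below), so that 81.8% lay above. Averaging 1 with 3 and 2 with 4 gave 3713 (1592 and 2121), 1 with 4 and 2 with 3 gave 4556 (2006 and 2550), the replicate block 3492 (1462 and 2030) and an orientation term 3721 (1568 and 2153). Centring gave 1418 above. Against galactose (2656) the same 3 averages gave 796 (320 and 476), 4089 (1868 above) and 4749 (2198 and 2551). The block gave 1733 above, the orientation term 4083 (1838 above) and centring 1760 above.

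Among list medians, gluconeogenesis ran from 1.26 to 1.56 when single arrays were left out, stationary phase from 1.67 to 1.89 (1.89 with centring) and pheromone genes from -0.14 to -0.0053 (0.0078 with centring). The autophagy median was 0.95 with centring. The cause of these shifts was not tested. The number of arrays limits the precision, and signal over background was not analysed here. Promoter motifs were not run.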
